A study of Mus musculus with 12 samples.

Results

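The transcripts described here are those of a p38 MAP kinase module of 10 genes, measured in mouse bone marrow neutrophils. They are the MAP3K gene Map3k4, the MAP2K genes Map2k3, Map2k6, Map2k4 and Map2k7, the p38 genes Mapk14, Mapk13, Mapk12 and Mapk11, and Mapkapk2. They were taken by name from a table of 29737 genes, in which all 10 were listed, and 8 had enough reads to be tested among 16761 genes. Map2k6 and Mapk13 set the choice: the module was chosen by their values with Tβ-MCA and PBS, Map2k6 being higher and Mapk13 lower with Tβ-MCA. The difference between Tβ-MCA and PBS is therefore given for the members as a description, and no p of that contrast is used to support it, while the samples with the other bile acids were not used to choose them. Mapk11 and Mapk12 had too few reads for a test in any comparison.

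Neutrophils came from the bone marrow of wild-type mice, as 12 samples in 4 groups of 3, and all were kept in RPMI medium with fetal bovine serum. They received PBS as the vehicle control, taurocholic acid (TCA) at 200 μM, glycocholic acid (GCA) at 200 μM or tauro-β-muricholic acid (Tβ-MCA) for 24 h. The labels give 10 μM for Tβ-MCA, which differs from the dose in the study's methods. The cells were selected as Ly6G+ with magnetic beads according to the labels. The study speaks of biologically independent experiments, but neither the labels nor the methods say which mouse each sample came from. TCA and GCA share the cholic acid core and differ in the amino acid joined to it, taurine in TCA and glycine in GCA. Tβ-MCA carries taurine on β-muricholic acid, a bile acid abundant in mice.

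p38 kinases are MAP kinases that respond to stress and to inflammatory signals, and they are the last of 3 kinases that act in sequence. A MAP3K phosphorylates a MAP2K, and the MAP2K phosphorylates p38 on a threonine and a tyrosine in its activation loop. MKK3 and MKK6, encoded by Map2k3 and Map2k6, are the MAP2Ks dedicated to p38, whereas MKK4 and MKK7, encoded by Map2k4 and Map2k7, act mainly on the JNK kinases, with MKK4 also able to phosphorylate p38. In neutrophils, p38 takes part in chemotaxis, the respiratory burst and cytokine production. RNA levels do not measure the phosphorylation on which the activity of these kinases depends.

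The members lie at several places in the mouse genome, given here on GRCm38 as in the deposited table. Map2k6 spans chr11:110399122-110525522 on the plus strand, and Map2k3 lies on the same chromosome at chr11:60932033-60952811, also on the plus strand. Mapk14 at chr17:28691342-28748404 and Mapk13 at chr17:28769307-28778698 are neighbours on the plus strand, separated by 20902 bases with no listed gene between them. Mapk12 at chr15:89130585-89140703 and Mapk11 at chr15:89142486-89149606 are likewise neighbours, on the minus strand and 1782 bases apart. Map3k4 lies on the minus strand at chr17:12227621-12318660. The longest run of identical bases between the transcripts of any pair of members was 23, for Map2k3 and Map2k6. Exons of Map2k7, which lies at chr8:4238740-4251423, share 1530 of their 5359 bases with Tgfbr3l on the same strand, so that its count is uncertain.

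The promoters of Map2k6, Map3k4 and Mapk13 are shown because these members differed most between Tβ-MCA and PBS. Each line holds the 250 bases before the RefSeq start of the gene on GRCm38.p6, at chr11:110398852-110399101 (plus strand) for Map2k6, chr17:12318661-12318910 (minus strand) for Map3k4 and chr17:28769067-28769316 (plus strand) for Mapk13. Capitals mark the GC box, GGGCGG on either strand.
Map2k6: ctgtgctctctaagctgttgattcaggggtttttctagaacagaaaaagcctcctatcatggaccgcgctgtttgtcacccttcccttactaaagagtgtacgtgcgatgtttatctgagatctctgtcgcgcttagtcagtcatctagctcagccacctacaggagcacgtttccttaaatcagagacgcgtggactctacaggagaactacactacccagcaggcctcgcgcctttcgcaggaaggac
Map3k4: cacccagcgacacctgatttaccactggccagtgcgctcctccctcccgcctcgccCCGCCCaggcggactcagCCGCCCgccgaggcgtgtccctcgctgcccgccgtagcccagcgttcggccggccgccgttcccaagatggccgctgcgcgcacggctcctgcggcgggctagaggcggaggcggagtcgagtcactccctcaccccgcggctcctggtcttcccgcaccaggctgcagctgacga
Mapk13: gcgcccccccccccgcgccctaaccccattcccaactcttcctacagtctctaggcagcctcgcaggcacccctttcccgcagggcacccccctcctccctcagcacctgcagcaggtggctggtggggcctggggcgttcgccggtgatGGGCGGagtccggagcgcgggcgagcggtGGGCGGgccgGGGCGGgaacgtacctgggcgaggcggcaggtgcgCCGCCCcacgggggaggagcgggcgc
The 3 windows differ in composition. G and C made up 50.4% of the Map2k6 window, 73.6% of that of Map3k4 and 76.0% of that of Mapk13. Mapk13 held 4 GC boxes and Map3k4 held 2, while 32.7% of 32851 promoter windows of this length held at least 1. A further 6 motifs were searched on both strands, the CRE (TGACGTCA), the AP-1 site (TGACTCA), the E-box (CACGTG), the CCAAT box (CCAAT), the TATA box (TATAAA) and the half-site of nuclear receptors (AGGTCA). None of these 6 was found in the 3 windows, and this window of Map2k6 held no GC box either. The motifs occur in 1.55%, 4.46%, 6.02%, 33.8%, 12.4% and 14% of all windows, in the order given. The Map2k6 window ends 20 bases before the start in the deposited table, and that of Mapk13 reaches 10 bases past it. RefSeq listed a window under the symbol of each of the 10 members. It listed 3 starts for Map2k6, of which the nearest to the deposited start is shown, and the bases just after that start were in none of the GENCODE transcripts of the gene.

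Each sample held between 32757389 and 41375925 counted reads, at which 3 reads equal 0.0725 to 0.0931 CPM, the read count scaled to the TMM-normalized size of the library. Such floors cover counting error only. GCA replicate 4 and Tβ-MCA replicate 5 stood apart from the rest of their groups. A score over 1275 other genes that passed the test between Tβ-MCA and PBS was set to 0 at the PBS mean and 1 at the Tβ-MCA mean. GCA replicate 4 scored 0.58, against 0.193 and 0.21 in the other GCA samples, and Tβ-MCA replicate 5 scored 0.628, against 1.23 and 1.143 in the other Tβ-MCA samples. TCA samples scored 0.165 to 0.201. The score genes were chosen with the same PBS samples that set its 0, so scores above 0 with TCA or GCA can arise without an effect. All 11 neutrophil markers, Ly6g included, were detected in every sample. With Tβ-MCA, 4 of them passed the test as lower than PBS, beside 3.18% of all genes. Only 1 of the 11 had a log2 difference above 0, and 9 did not overlap with PBS, beside 27% of all genes. Their summed CPM was 47931 to 59357 with PBS and 38391 to 43722 with Tβ-MCA. The summed CPM of 9 monocyte and macrophage markers was 1032 to 1055 with PBS, 926 to 1100 with TCA, and 997 and 1018 in GCA replicates 3 and 5. It was 739 in GCA replicate 4, 290 and 350 in Tβ-MCA replicates 3 and 4, and 809 in Tβ-MCA replicate 5. The largest part of the sum with PBS was F13a1, at 519 to 584 CPM. In Tβ-MCA replicates 3, 4 and 5, F13a1 lay at 54.8, 75.9 and 367 CPM. Csf1r moved less, from 215 to 271 CPM with PBS to 146, 178 and 235 CPM. All 9 markers lay below the PBS mean with Tβ-MCA, by log2 differences of −1.89 to −0.42, and none passed the test. Ccr2, Csf1r and the other 7 had 3 or more counts in every sample. Summed eosinophil markers lay at 138 to 241 CPM with PBS and 54.1 to 124 CPM with Tβ-MCA, and those of B cells reached at most 7.66 CPM in any sample. The part of these markers in the results below was not tested. In bulk samples, fewer cells of a type and less RNA per cell cannot be told apart.

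Among the 8 members with enough reads, Map2k6 and Map3k4 had the higher and Mapk13 the lower values with Tβ-MCA than with PBS. In the fit over all genes these 3 fell among the 7.62% of genes that were called (4.44% higher and 3.18% lower, adjusted p under 0.05 in edgeR). Since the module was chosen on this contrast, the count of 3 tests nothing about it and is given only to describe how the members were placed. Map2k3 also lay higher in every Tβ-MCA sample than in any PBS sample, and the other 4 members differed from PBS by 0.05 or less on the log2 scale. In all, 4 of the 8 members did not overlap between these groups, as did 27% of all genes tested. The unadjusted cutoffs that the study's methods name, p under 0.05 with a fold change of 2, kept Map2k6 alone and 2.95% of all genes. The placing depended on the samples. No member and no gene was called when PBS replicate 3, PBS replicate 5, Tβ-MCA replicate 3 or Tβ-MCA replicate 4 was left out, and 1 member, Map3k4, was called without PBS replicate 6, among 0.981% of all genes. Without Tβ-MCA replicate 5, 4 members were called, Map2k3 being the addition, among 18% of all genes. With only the 2 groups compared in the model, no gene was called.

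**Figure D1:**
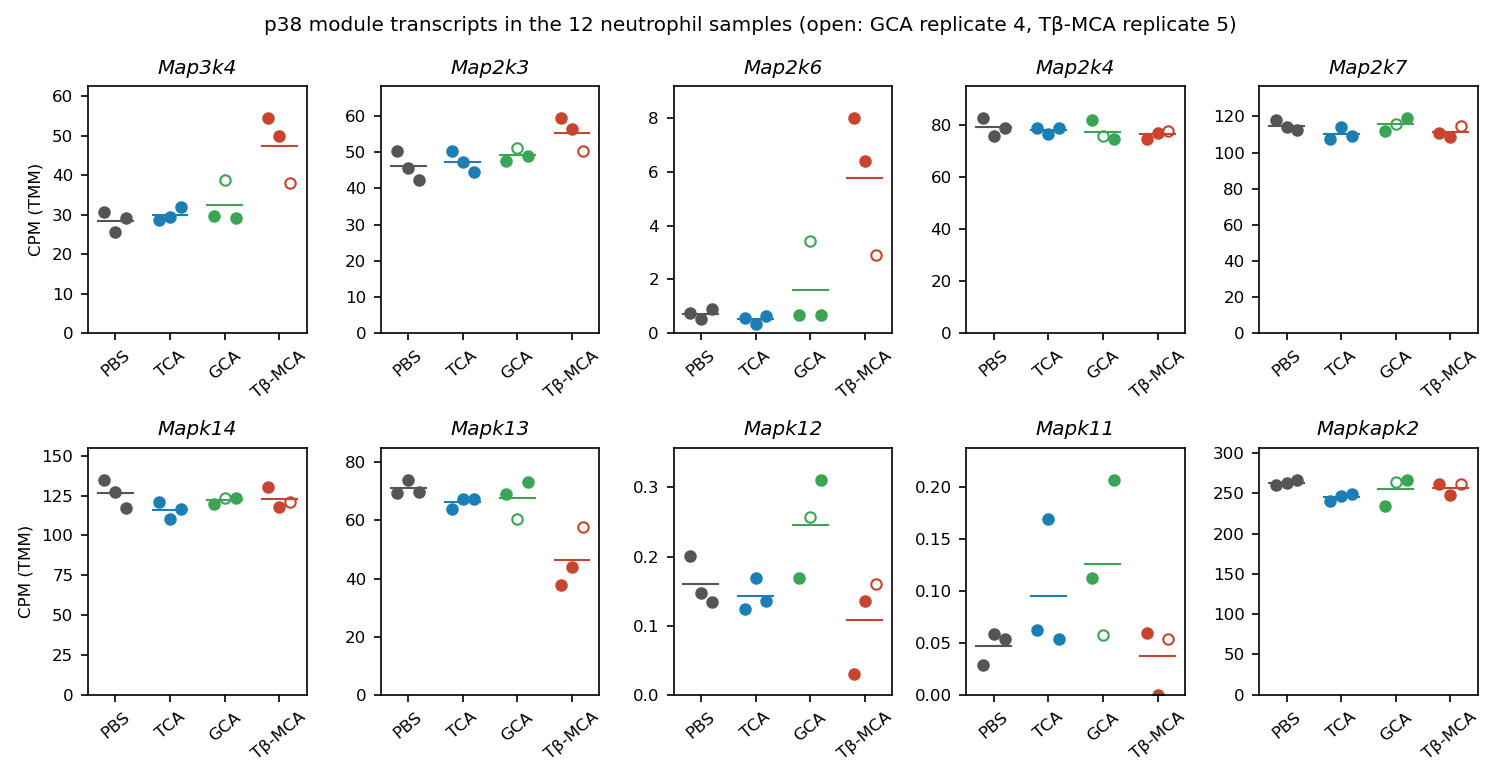
CPM (TMM scaled, linear axis from 0) of the 10 members in each sample, with points for the 3 samples of a group and a line at their mean. Open points mark GCA replicate 4 and Tβ-MCA replicate 5, which lie at 3.44 and 2.92 CPM for Map2k6, between the 8 low samples and the 2 other Tβ-MCA samples.

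Map3k4 encodes MEKK4, a MAP3K that the GADD45 proteins bind and activate and that acts on p38 and JNK through their MAP2Ks. Its level was 30.7, 25.6 and 29.2 CPM in the PBS samples (replicates 3, 5 and 6) and 54.4, 49.9 and 37.9 CPM in the Tβ-MCA samples (replicates 3, 4 and 5). The lowest Tβ-MCA sample was above the highest PBS sample, and the 2 others were further away. The difference was 0.73 on the log2 scale (SE 0.13, n = 3 per group), a ratio of 1.66, and 0.87 (SE 0.12) without Tβ-MCA replicate 5. With TCA the level was 28.6, 29.4 and 32.1 CPM, which overlapped with PBS. With GCA it was 29.6, 38.7 and 29.2 CPM, so that GCA replicate 4 alone exceeded the level of Tβ-MCA replicate 5.

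Map2k6, which encodes MKK6, had the lowest level of the MAP2Ks. It was covered by 26, 18 and 34 reads with PBS and by 18, 14 and 24 reads with TCA, which correspond to 0.746, 0.530 and 0.917 CPM and to 0.558, 0.338 and 0.650 CPM. With Tβ-MCA it was covered by 267, 237 and 109 reads, which correspond to 7.99, 6.40 and 2.92 CPM. Every Tβ-MCA sample lay above every PBS sample, by a log2 difference of 2.97 between the groups (SE 0.64), or 7.82-fold. Without Tβ-MCA replicate 5 the difference was 3.29 (SE 0.61), or 9.75-fold. With GCA the reads numbered 24, 120 and 26, or 0.676, 3.44 and 0.674 CPM, so that replicates 3 and 5 lay within the PBS range and replicate 4 was 4.70 times the PBS mean. GCA replicate 4 thus held more Map2k6 RNA than Tβ-MCA replicate 5, which was at 3.99 times the PBS mean.

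Map2k3, the paralog that encodes MKK3, was the more abundant of these MAP2K genes and moved less. Its level was 50.2, 45.6 and 42.5 CPM with PBS and 59.4, 56.3 and 50.3 CPM with Tβ-MCA. The groups did not overlap, but Tβ-MCA replicate 5 and PBS replicate 3 were nearly equal. The log2 difference was 0.26 (SE 0.08), a ratio of 1.20, and 0.33 (SE 0.08) without Tβ-MCA replicate 5. Map2k3 lay at 44.5 to 50.4 CPM with TCA and at 47.7 to 51.2 CPM with GCA.

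Mapk13, which encodes p38δ, was the member that was lower with Tβ-MCA. Its level was 69.4, 74.0 and 69.9 CPM with PBS and 37.9, 43.9 and 57.7 CPM with Tβ-MCA. All 3 Tβ-MCA samples were below all PBS samples, replicate 5 the least. The log2 difference was −0.61 (SE 0.12), which is 1.53-fold lower, and −0.80 (SE 0.09), or 1.74-fold lower, without Tβ-MCA replicate 5. With TCA the level was 64.0, 67.4 and 67.4 CPM, and all 3 samples lay below the PBS samples. With GCA it was 69.2, 60.6 and 73.1 CPM, lowest in replicate 4, at 0.852 of the PBS mean.

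The other members stayed within a narrow range. Mapk14, which encodes p38α, lay between 111 and 135 CPM over all 12 samples, and its log2 difference between Tβ-MCA and PBS was −0.04 (SE 0.07). Map2k4 lay between 74.6 and 82.5 CPM and Map2k7 between 107 and 119 CPM, with log2 differences of −0.05 (SE 0.06) and −0.04 (SE 0.06). Mapkapk2, which encodes the kinase MK2 that p38α activates, lay between 234 and 267 CPM, with a log2 difference of −0.03 (SE 0.06). The sign of the Map2k7, Mapk14 and Mapkapk2 differences turned when the counts were scaled by total library size, where they were 0.00457, 0.00865 and 0.0140, and no direction is given for these genes. With this scaling the differences of Map2k6, Map3k4 and Mapk13 were 3.02, 0.78 and −0.57.

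Mapk12, which encodes p38γ, and Mapk11, which encodes p38β, were near the limit of detection. Mapk12 had 1 to 12 reads per sample and was under 3 reads in 1 of 12 samples, at most 0.311 CPM. Mapk11 had 0 to 8 reads and was under 3 reads in 9 of 12 samples. Summed over 3 samples, Mapk12 had 17 reads with PBS, 16 with TCA, 27 with GCA and 12 with Tβ-MCA, and Mapk11 had 5, 11, 14 and 4. A difference in these genes was not detectable at this depth.

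**Figure D2:**
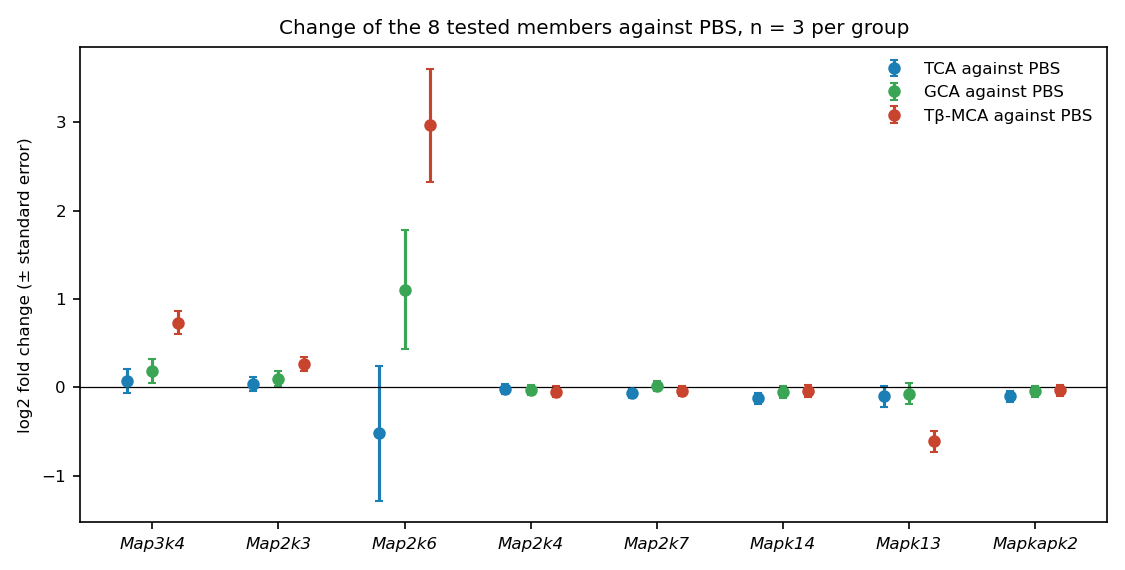
Log2 fold change of each tested member against PBS for TCA, GCA and Tβ-MCA, with bars for the standard error of the edgeR model (n = 3 per group, the PBS samples being shared by the 3 comparisons). Map2k6 had the widest error, 0.67 with GCA and 0.76 with TCA, and the 4 members Map2k4, Map2k7, Mapk14 and Mapkapk2 lay between −0.13 and 0.01.

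Neither TCA nor GCA gave a called member when compared with the PBS samples, which both comparisons share with that of Tβ-MCA. With TCA, 0 of 8 members passed the adjusted p under 0.05 in edgeR, as did 0% of all genes. At an unadjusted p under 0.05, 0 members and 546 genes passed, and with DESeq2 1 gene passed the adjusted threshold. With the 2-fold cutoff as well, 0.465% of genes passed. Mapk13 and Mapkapk2 did not overlap between TCA and PBS, 2 of 8 members beside 9.67% of all genes. Mapk13 was lower with TCA by a log2 difference of −0.10 (95% interval −0.35 to 0.15) and Mapkapk2 by −0.10 (−0.23 to 0.03), and both had an adjusted p of 1. The interval of Map3k4 was −0.21 to 0.36 and that of Map2k3 was −0.14 to 0.21. For Map2k6 the log2 difference was −0.52 with an interval of −2.22 to 1.18, which is wide at 14 to 34 reads per sample.

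With GCA, 0 of 8 members passed the adjusted p under 0.05 against PBS, as did 0% of all genes, and 0.531% of genes passed the unadjusted cutoffs with a fold change of 2. At an unadjusted p under 0.05, 0 members and 591 genes passed, and DESeq2 called 0 genes. No member was separated from PBS in all samples, and 9.55% of genes were. Map2k6 had a log2 difference of 1.11 (95% interval −0.39 to 2.61, adjusted p = 0.999, edgeR), which was −0.12 (SE 0.45) without GCA replicate 4. Without a filter on low counts the adjusted p of Map2k6 was 0.0337, the lowest among the alternatives, whose highest was 1. The value thus rested on GCA replicate 4. For Map3k4 the difference of 0.19 (interval −0.10 to 0.48) became 0.04 without that sample, and for Mapk13 the difference of −0.07 (interval −0.32 to 0.18) became 0.00.

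GCA and TCA were given at the same dose and compare the glycine with the taurine conjugate of cholic acid. This was the single pair of bile acids compared, since Tβ-MCA was given at another dose in the labels, and its values stand beside theirs without a comparison. Again 0 of 8 members and 0% of all genes passed the adjusted p under 0.05 in edgeR, and DESeq2 called 0 genes. At an unadjusted p under 0.05, 1 member and 412 genes passed, and 0.442% of genes also had a fold change of 2. That member was Map2k6, higher with GCA by a log2 difference of 1.63 (95% interval 0.06 to 3.20, adjusted p = 1, edgeR), and 0.40 (SE 0.47) without GCA replicate 4. It was also the 1 member of 8 whose groups did not overlap, beside 8% of all genes, but the lowest GCA sample, at 0.674 CPM, and the highest TCA sample, at 0.650 CPM, were almost level. The intervals of the other members ran from −0.22 to 0.28 for Mapk13, from −0.17 to 0.40 for Map3k4 and from −0.12 to 0.23 for Map2k3. Those of Mapk14, Map2k7, Map2k4 and Mapkapk2 lay within −0.14 and 0.21.

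Levels of different genes can be compared per length, for which the deposited RPKM values were used. RPKM divides by the listed exon length, 4361 bases for Mapk14 and 1512 for Mapk13, and the order of these genes depends on that length. By reads alone Mapk14 was the higher with PBS, at 127 ± 8.80 CPM against 71.1 ± 2.52 CPM for Mapk13. Which of the listed exons were used in these cells was not tested. In the PBS samples Mapkapk2 was highest at 85.5 ± 1.93 RPKM (SD, n = 3), followed by Mapk13 at 46.5 ± 1.86, Mapk14 at 28.7 ± 1.69, Map2k7 at 21.2 ± 0.292 and Map2k4 at 16.7 ± 0.601. Map2k3 followed at 13.7 ± 1.01 and Map3k4 at 5.31 ± 0.462. Map2k6 was far lower at 0.210 ± 0.0566 RPKM, above Mapk12 at 0.0840 ± 0.0173 and Mapk11 at 0.0191 ± 0.00670. Neighbours in this order were separated by more than their SDs. With Tβ-MCA, Mapk13 fell to the level of Mapk14 within the spread, at 31.4 ± 6.66 against 28.8 ± 1.44 RPKM, and Map2k3 came level with Map2k4, at 17.1 ± 1.51 against 16.7 ± 0.325. Map2k6 reached 1.71 ± 0.774 RPKM and still was the lowest of the MAP2Ks in every sample.

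**Figure D3:**
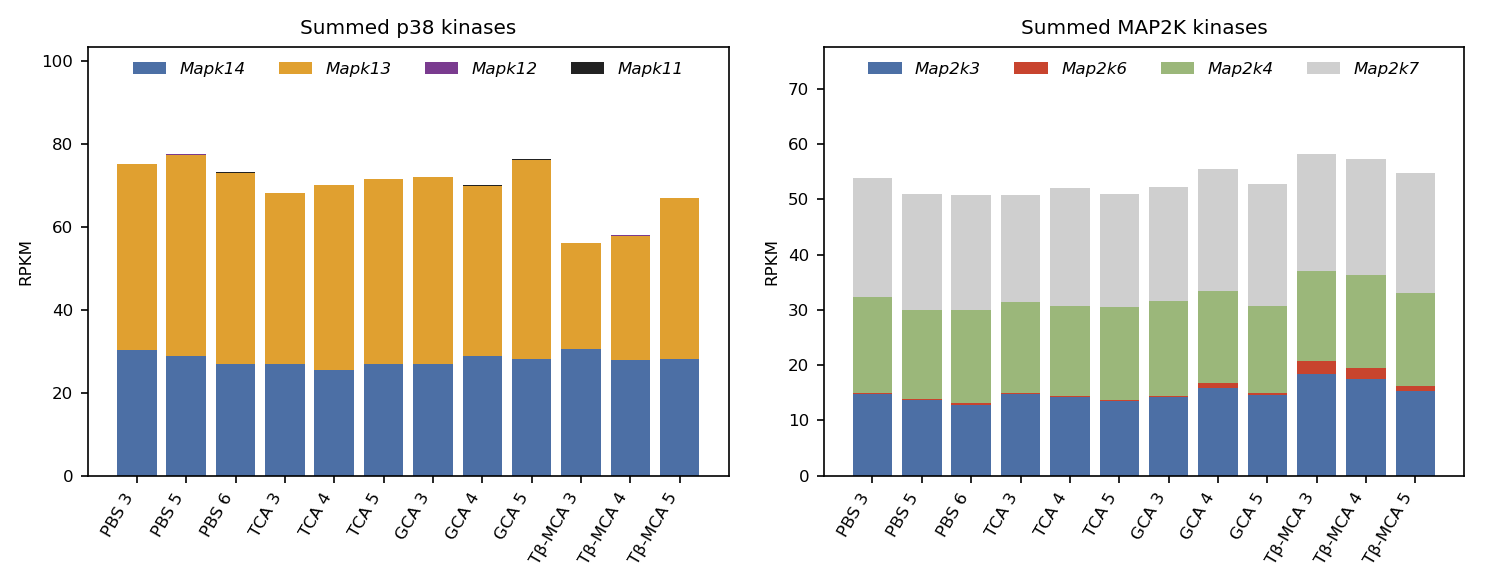
Deposited RPKM of the p38 kinases (left) and of the MAP2Ks (right), stacked for each of the 12 samples, on linear axes from 0. Mapk12 and Mapk11 are too low to be seen, the summed p38 level is lowest in the 3 Tβ-MCA samples at 56.1 to 66.9 RPKM, and Map2k6 shows as a thin layer in GCA replicate 4 and the Tβ-MCA samples.

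The summed level of the 4 p38 kinases was 75.2 ± 2.21 RPKM with PBS and 60.3 ± 5.80 with Tβ-MCA, where the samples lay at 56.1, 57.9 and 66.9. Nearly all of it came from Mapk13 and Mapk14, and the drop was that of Mapk13. The ratio of Mapk13 to Mapk14 was 1.63 ± 0.125 with PBS and 1.10 ± 0.268 with Tβ-MCA. In Tβ-MCA replicate 3 it was 0.839, the 1 sample in which Mapk14 was the higher per length. Mapk14 accordingly made up 38.1% ± 1.85 of the p38 RPKM with PBS and 54.3%, 48.1% and 42.1% in the Tβ-MCA samples. It made up 37.4%, 41.3% and 36.9% with GCA, highest in replicate 4, and 37.7% ± 1.69 with TCA. The summed p38 level with TCA, 69.9 ± 1.74 RPKM, was below all PBS samples, with an exact two-sided permutation p of 0.1, the smallest that 3 against 3 samples allow. With GCA it was 72.7 ± 3.18 RPKM, with an exact permutation p of 0.4.

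On the MAP2K side the sum of Map2k4 and Map2k7 was 37.9 ± 0.791 RPKM with PBS and lay at 37.5, 37.8 and 38.6 RPKM in the Tβ-MCA samples. The sum of Map2k3 and Map2k6 was 13.9 ± 0.990 RPKM with PBS and 18.8 ± 2.29 with Tβ-MCA, most of it Map2k3. Map2k6 made up 1.52% ± 0.474 of this pair with PBS, and 11.5%, 9.86% and 5.29% in the Tβ-MCA samples. The share was 1.35%, 6.07% and 1.30% with GCA and 1.04% ± 0.350 with TCA, for which the exact permutation p against PBS were 0.7 and 0.2. Transcripts of the 4 MAP2Ks together came to 51.9 ± 1.65 RPKM with PBS and 56.8 ± 1.72 with Tβ-MCA, while those of the p38 kinases were fewer with Tβ-MCA.

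GCA replicate 4 and Tβ-MCA replicate 5, which had intermediate scores over other genes, also had intermediate levels of 3 members. Over the 8 samples that are neither Tβ-MCA nor GCA replicate 4, Map2k6 lay between 0.338 and 0.917 CPM, Map3k4 between 25.6 and 32.1 CPM and Mapk13 between 64.0 and 74.0 CPM. Both samples were outside these ranges and lay next to each other for all 3 genes, with 38.7 and 37.9 CPM for Map3k4 and 60.6 and 57.7 CPM for Mapk13. Over the 12 samples, the Pearson r of log2 CPM was −0.89 between Map2k6 and Mapk13, 0.95 between Map2k6 and Map3k4 and −0.96 between Mapk13 and Map3k4. These are descriptions over samples that share the group difference by which the members were chosen.

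**Figure D4:**
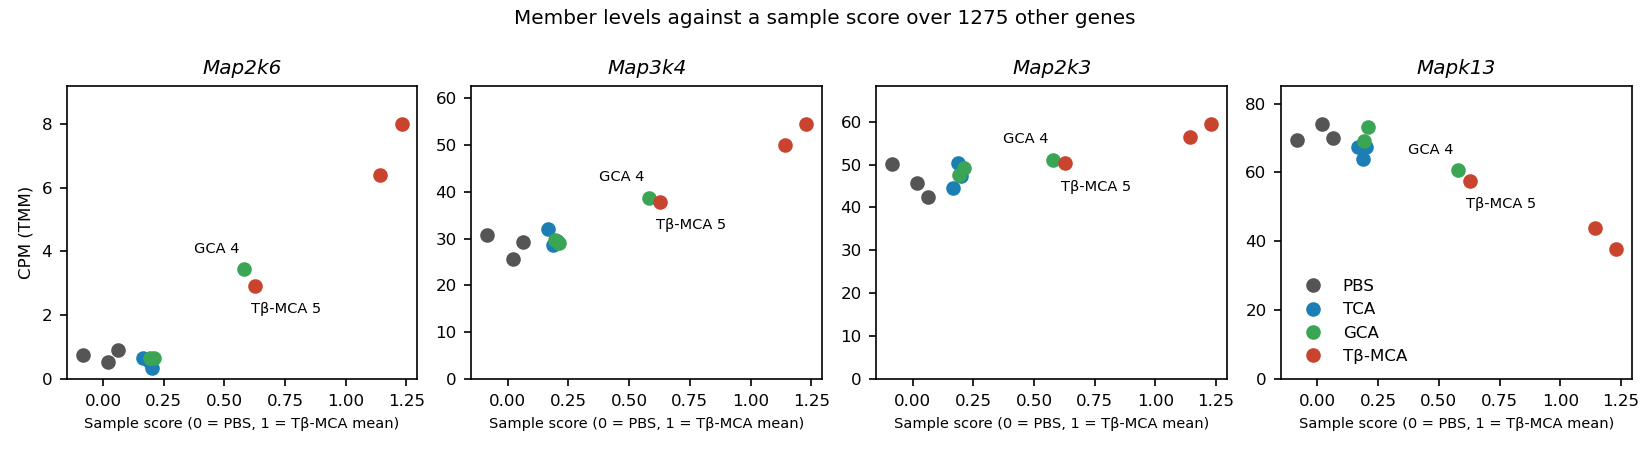
CPM of Map2k6, Map3k4, Map2k3 and Mapk13 in each sample (linear axis from 0) against the score over 1275 other genes, which is 0 at the PBS mean and 1 at the Tβ-MCA mean. GCA replicate 4 at 0.58 and Tβ-MCA replicate 5 at 0.628 lie side by side between the samples of lower score and the 2 other Tβ-MCA samples. Their CPM are also intermediate for Map2k6, Map3k4 and Mapk13. For Map2k3, Tβ-MCA replicate 5 at 50.3 CPM lies below TCA replicate 3 at 50.4 CPM.

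The genes most like Map2k6 over the 12 samples were Adi1 (Pearson r 0.98 of log2 CPM), Gbp2, a guanylate-binding protein induced by interferon (0.98), and Tubb5, a β-tubulin (0.98). Adi1 lay at 4.09 to 4.91 CPM with PBS and 7.66 to 12.4 CPM with Tβ-MCA. Map3k4 was at rank 25 of this order and Map2k3 at rank 1087. Most like Mapk13 were Fam43a (0.99), Ly6c2, a surface antigen of monocytes and also of neutrophils (0.99), and Gm15232 (0.99). Ly6c2 lay at 107 to 117 CPM with PBS, 92.3 to 99.5 CPM with TCA, 76.6 to 103 CPM with GCA and 40.7 to 82.6 CPM with Tβ-MCA.

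The rest of the pathway was taken from lists by role, which were written with earlier results of these data known. Their calls, like those of the members, were absent when PBS replicate 3 or 5 or Tβ-MCA replicate 3 or 4 was left out. Between Tβ-MCA and PBS, 5 of 18 tested upstream kinases and activators were higher and none lower, beside the 4.44% and 3.18% of all genes. They were Gadd45a (1.73-fold), Gadd45b (1.67-fold), Gadd45g (1.49-fold), Map3k1 (1.25-fold) and Map3k2 (1.24-fold). Gadd45b was outside the rule for named genes and was added after its value was seen, as were the genes named below that did not pass. The 3 GADD45 genes encode stress-induced proteins that bind MEKK4, the product of Map3k4. Gadd45a was at 46.4 ± 3.58 CPM with PBS and 80.4 ± 21.0 CPM with Tβ-MCA (SD, n = 3), and Gadd45b was at 71.6 ± 7.98 and 120 ± 28.0 CPM. MAP3Ks of the pathway such as Map3k5 (ASK1) and Map3k7 (TAK1) did not pass, with log2 differences of 0.08 and 0.01. The median over the list was 0.08, beside 0.00 over all genes tested.

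Among phosphatases that act on p38 or other MAP kinases, 3 of 10 tested were lower and none higher, with a list median of −0.61. This median lay between the log2 differences of Ptpn7 (−0.65) and Dusp10 (−0.56). The lowest values were those of Ptprr (−1.77) and Dusp2 (−1.17), and 3 of the 10 genes lay above 0. Ptprr, Dusp2 and Dusp10 did not pass and had few reads, at means of 0.0894, 0.441 and 0.349 CPM with Tβ-MCA. The median is therefore not a measure of a fall across the list. Dusp1, which encodes the nuclear phosphatase MKP-1, was at 510 ± 52.3 CPM with PBS and 320 ± 69.7 CPM with Tβ-MCA, 1.59-fold lower (log2 difference −0.67, SE 0.14). Dusp16 was 1.61-fold lower and Ptpn7, a tyrosine phosphatase of blood cells, 1.57-fold lower. The serine/threonine phosphatase genes Ppm1a, Ppm1b and Ppm1d lay within −0.13 and 0.04.

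Downstream of p38, 1 of 15 tested kinase, transcription factor and RNA-binding protein genes was higher and none lower, with a median of −0.04. With 4.44% of all genes called higher, 1 call does not set this list apart. It was Ddit3, which encodes the stress factor CHOP, at 87.9 ± 8.60 CPM with PBS and 122 ± 17.3 CPM with Tβ-MCA (1.38-fold). Mapkapk3, the paralog of Mapkapk2, had a log2 difference of −0.15 (SE 0.08) and did not pass. The 9 inflammatory mRNAs whose stability or translation MK2 is known to raise were all below PBS, from −1.43 to −0.18 on the log2 scale. The median of −0.69 was the value of Il6, which did not pass and lay at 1.36 CPM with PBS and 0.840 CPM with Tβ-MCA. Of the 9 genes, 2 passed, beside 3.18% of all genes called lower. These were the chemokine genes Cxcl1, at 1.01 ± 0.185 CPM with PBS and 0.369 ± 0.102 CPM with Tβ-MCA (2.70-fold lower), and Ccl3, at 99.5 ± 11.6 and 69.7 ± 8.65 CPM (1.43-fold lower). The summed monocyte and macrophage markers given above moved the same way between these groups, and their part in these values was not tested.

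Single calls stood in the next lists too, which they do not set apart. Of 3 scaffolds tested, Ccm2, whose product binds MEKK3 and MKK3, was higher (1.24-fold), while Spag9, which encodes JIP4, had a log2 difference of 0.01. Of 10 tested genes of the parallel ERK, JNK and ERK5 cascades, Mapk9, which encodes JNK2, was higher (1.32-fold, 21.8 ± 3.01 CPM with PBS and 28.9 ± 1.24 CPM with Tβ-MCA), and 9 did not pass, with a median of 0.01 over the list. With TCA against PBS, GCA against PBS and GCA against TCA, no gene of any of these lists passed the adjusted threshold in edgeR, where no gene at all was called. At an unadjusted p under 0.05, 3 of the 18 upstream genes passed with TCA against PBS and 1 passed with GCA against PBS. For GCA against PBS, 2 of 10 phosphatase genes and 2 of the 9 inflammatory mRNAs did so, and for GCA against TCA, 2 of 10 phosphatase genes. Over all genes, 3.26% passed with TCA against PBS, 3.53% with GCA against PBS and 2.46% with GCA against TCA.

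**Figure D5:**
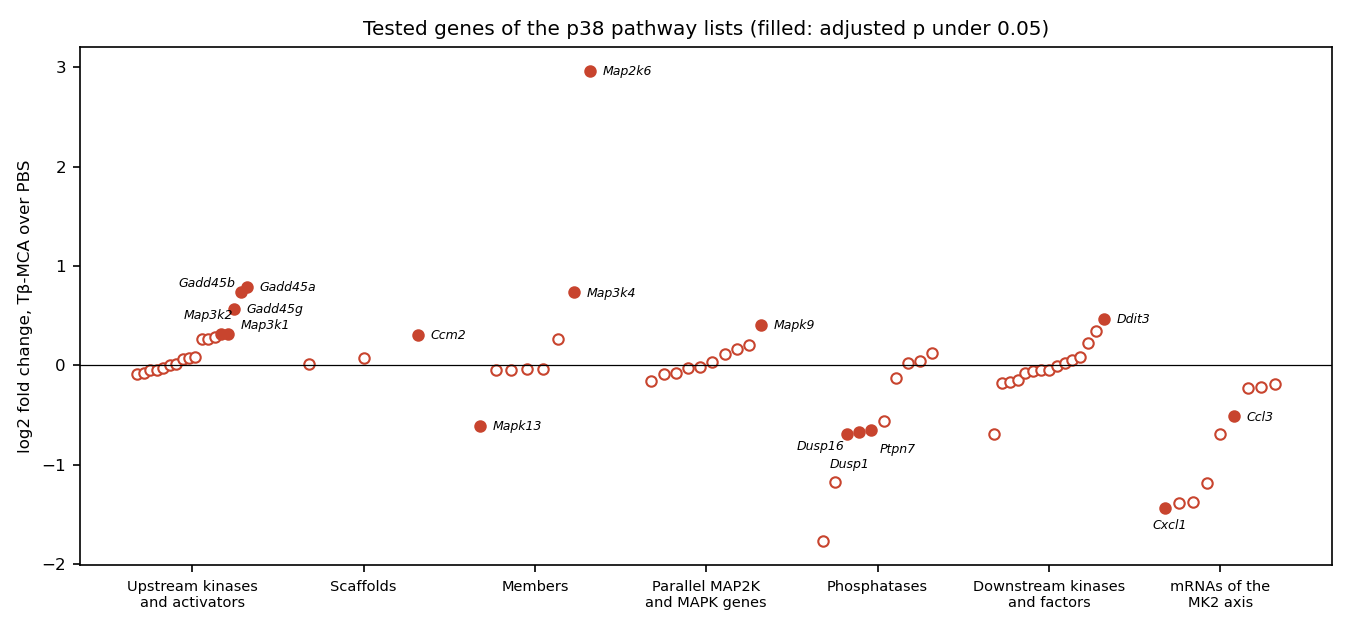
Log2 fold change between Tβ-MCA and PBS of each tested gene in the pathway lists, by role, with filled points for genes at an adjusted p under 0.05 (edgeR, n = 3 per group). Filled points are above 0 among the upstream genes, scaffolds, parallel and downstream genes, below 0 among the phosphatases and inflammatory mRNAs, and on both sides among the members.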

How the data were processed

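mRNA of 12 neutrophil samples was sequenced from a stranded library kit. The authors deposited raw read counts per gene, which the submitters' processing notes link to Trimmomatic 0.36, STAR 2.5.3a, featureCounts of Subread 1.5.1 and GRCm38. RPKM per gene, deposited beside the counts, were recalculated from count, exon length and sample total and matched within a relative error of 1.3e-06. The strand setting of the counting is not given in the sources used here. Columns named GA were read as GCA, as the series text names that treatment.

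Counts were normalized by TMM and tested with the robust quasi-likelihood test of edgeR 4.0.16 (R 4.3.3) after filterByExpr by group, with all 12 samples sharing the spread, and p was adjusted by Benjamini-Hochberg over 16761 genes. The intervals are 95% intervals of that model. CPM use TMM factors between 0.972 and 1.03, RPKM do not. Log2 CPM used a prior count of 2, and the script was tested on simulated data. Summed levels were compared by exact two-sided permutation tests. Python 3.11.15 with scipy 1.17.1 was used for other steps. Alternatives were DESeq2 1.42.0, total library size, no filter, only the 2 groups compared, the replicate block, the unadjusted cutoffs and leaving out each sample.

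The members and lists were chosen with earlier results of these data known. Named genes are all members, up to 4 called genes per list with the lowest p, and the 3 genes most like Map2k6 and Mapk13. Gadd45b, Map3k5, Map3k7, Dusp2, Dusp10, Ptprr, Ppm1a, Ppm1b, Ppm1d, Mapkapk3, Il6 and Spag9 fall outside this rule and were added after their values were seen.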

Additional observations from a re-analysis of the deposited data

How the results depend on the processing

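For Tβ-MCA against PBS, the contrast by which the module was chosen, 3 of 8 members were called beside 7.62% of all genes, which describes the members and tests nothing. The number was 0 with only the 2 groups compared, 1 (Map2k6) with unadjusted p and a fold change of 2, and 0 to 4 when a sample was left out. For GCA against PBS and GCA against TCA, where none was called, Map2k6 made it 1 without a filter on low counts, and for GCA against TCA also with unadjusted p and a fold change of 2. DESeq2 and total library size each gave 4 members for Tβ-MCA against PBS, beside 12.4% and 8.4% of all genes. With the replicate block 2 members, Map3k4 and Mapk13, were called for Tβ-MCA against PBS, beside 8.94% of all genes, and Map2k6 (log2 difference 2.85) was not. In the other comparisons 0 members were called, beside 3 genes for TCA against PBS and 0 otherwise. The labels do not say what the replicate numbers mean. The 15 pairs of samples with the same number had a mean correlation of 0.189 (0.06 to 0.326) of their deviations from the group means, beside −0.072 over 39 pairs with different numbers, and not every pair passed the limit of 0.1 set for pairing. The 6 pairs of samples numbered 3 lay at 0.197 to 0.326. Over single genes, 309 of the alternative values kept direction and side of the threshold, 18 lost the call, 5 gained it and 20 turned sign. Those that turned sign were all of members not called in the comparison concerned. They include Map2k6 for GCA against PBS, at −0.12 without GCA replicate 4. The cause of these changes was not tested. Map2k6, Mapk11 and Mapk12 are limited by depth.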
